A study of Mus musculus with 8 samples.

Results

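The myeloid C-type lectin receptors are cell surface proteins of neutrophils, monocytes and dendritic cells that carry a lectin-type recognition domain. The 9 genes described here were chosen by their gene symbols (Clec4d, Clec4e, Clec7a, Clec4n, Clec4a1, Clec4a2, Clec4a3, Clec12a and Clec5a), and all 9 were found among the 21878 gene symbols of the count table. This choice was made with earlier results of these data known. RNA from the peripheral blood of wild-type (WT) female C57BL/6 mice aged 6 to 8 weeks was sequenced as 8 samples. For 6 hours, the 4 mice of the stress group were restrained in ventilated tubes while the 4 littermates of the control group stayed in their cage. Mice of both groups went without food and water during that time, so fasting was common to the 2 groups. Each sample was 1 library of whole blood, and the labels do not say whether blood was pooled, so p-values measure the spread between these samples.

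These receptors sense sugars and lipids of fungi and bacteria and products of dying cells. Clec7a (Dectin-1) binds beta-glucan of fungal walls and signals to the kinase Syk through its own tail. Clec4e (Mincle), Clec4d (MCL) and Clec4n (Dectin-2) signal to the same kinase through the adaptor Fcer1g, and Clec5a (MDL-1) through the adaptor Tyrobp (DAP12). From Syk the signal runs over Card9, Bcl10 and Malt1 to NF-kappaB. Clec4a2 (DCIR) and Clec12a (MICL) instead carry an inhibitory motif that recruits the phosphatases Ptpn6 and Ptpn11. Clec4a1 (Dcir4) and Clec4a3 (Dcir3) are close relatives of Clec4a2 in the same gene cluster.

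The 9 genes lay on chromosome 6 (GRCm38, GENCODE M21 annotation). Clec4a1 (122921848 to 122934619), Clec4a3 (122952515 to 122969875), Clec4a2 (123106428 to 123143999), Clec4n (123229843 to 123247021), Clec4d (123262111 to 123275265) and Clec4e (123281789 to 123289870) lay in this order in 1 cluster. Clec4a4 and Clec4b1 lay between Clec4a3 and Clec4a2, and Clec4b2 between Clec4a2 and Clec4n. Clec12a (129342691 to 129365303) and Clec7a (129461591 to 129472779) lay in a second cluster, and Clec5a (40574894 to 40585821) apart from both. The annotation types Clec7a as a polymorphic pseudogene, whereas RefSeq types it as protein coding. No exon of the 9 genes overlapped an exon of another annotated gene. Of the stretches of 50 bases in the annotated transcripts, 6.83% of those of Clec4a2 also occurred in transcripts of other genes, most of them in Clec4a4, and for the other 8 genes this share was at most 0.686%. Reads of Clec4a2 are therefore the least certainly assigned of the set.

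Promoter windows from RefSeq (GRCm38.p6, 250 bases before to 50 bases after a transcript start) were matched for 8 of the 9 genes, with 10 windows in all. Those of the 4 genes that passed both thresholds below are shown, since these are the genes on which the comparison turns, with the first of the 2 overlapping windows of Clec7a. Each is written along the strand of its gene, with matches on either strand to the 4 searched motifs in capitals, which are spelled out after them.
Clec4d, chr6:123261857-123262156, plus strand: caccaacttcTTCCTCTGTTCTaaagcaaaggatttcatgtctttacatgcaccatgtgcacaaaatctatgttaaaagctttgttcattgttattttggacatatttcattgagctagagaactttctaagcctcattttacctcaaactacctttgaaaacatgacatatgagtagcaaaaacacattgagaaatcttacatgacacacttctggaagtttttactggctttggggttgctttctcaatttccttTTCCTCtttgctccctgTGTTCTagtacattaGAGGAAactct
Clec4e, chr6:123289822-123290121, minus strand: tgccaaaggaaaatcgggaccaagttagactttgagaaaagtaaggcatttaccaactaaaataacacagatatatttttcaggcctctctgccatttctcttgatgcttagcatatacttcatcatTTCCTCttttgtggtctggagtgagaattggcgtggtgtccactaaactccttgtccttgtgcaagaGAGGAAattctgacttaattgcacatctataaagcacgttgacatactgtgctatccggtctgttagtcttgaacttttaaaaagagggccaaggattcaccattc
Clec7a, chr6:129472730-129473029, minus strand: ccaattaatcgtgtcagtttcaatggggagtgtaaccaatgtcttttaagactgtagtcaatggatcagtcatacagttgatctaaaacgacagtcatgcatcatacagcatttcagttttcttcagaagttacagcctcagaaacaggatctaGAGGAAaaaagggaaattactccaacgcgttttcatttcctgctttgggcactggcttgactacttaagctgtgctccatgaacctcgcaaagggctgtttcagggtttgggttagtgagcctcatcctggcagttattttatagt
Clec4a2, chr6:123122440-123122739, plus strand: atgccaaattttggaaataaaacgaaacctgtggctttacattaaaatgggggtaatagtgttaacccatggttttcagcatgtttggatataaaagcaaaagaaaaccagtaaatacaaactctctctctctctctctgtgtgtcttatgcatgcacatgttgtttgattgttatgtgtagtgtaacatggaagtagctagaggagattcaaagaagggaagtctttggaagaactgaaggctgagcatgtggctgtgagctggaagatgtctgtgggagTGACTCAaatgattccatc

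The letters GAGGAA, a core recognised by the myeloid factor PU.1, were found on either strand in 8 of the 10 windows. Of all 32851 promoter windows of the same length, 28.3% held them. By gene they were found in 7 of the 8, for which no share by gene was worked out. Clec4a2 was the gene without them. The windows of Clec4a2 and Clec12a lay wholly inside the GENCODE bounds given above, so sequence at the GENCODE start of these genes was not searched. The windows of Clec7a overlap each other, as do those of Clec4a3, so the 10 are not independent. TGTTCT, the core of a glucocorticoid receptor element, was found only in Clec4d among the 8 genes, at 2 places, and in 19% of all windows. In Clec4d the first of these 2 places directly adjoined a GAGGAA match. TGANTCA, an AP-1 site, was found in Clec4a2 and Clec12a and in 7.81% of all windows. TTGCAA, a C/EBP-type site, was found in Clec4a1 and in 6.23% of all windows. Such matches describe letters and were not tested for binding.

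Control libraries held 31471145 to 39014775 counts and stress libraries 25978683 to 29655725. Haemoglobin genes took 51.9% to 63.8% of the control counts and 61.2% to 75.5% of the stress counts, and counts outside haemoglobin numbered 11412556 to 18774818 and 6355715 to 11009882, with stress replicate 3 the lowest. Counts were therefore scaled with TMM, a method that takes most genes as unchanged, and CPM below stands for counts per 1e6 counts of a library scaled in this way. The median log2 fold change of the 11718 tested genes was -0.03 with TMM and -0.82 when scaled by total counts alone. The 9 genes together had 1521 to 2372 counts in a control library and 1085 to 3334 in a stress library.

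Receptor transcripts were unequally abundant in control blood. Per kilobase of exon, Clec7a had 5.37 ± 0.987 CPM (SD, n = 4) and Clec4d 5.13 ± 0.959 CPM, and the ranges of the 2 genes overlapped. Clec4a3 followed with 2.85 ± 0.674 and Clec4a1 with 2.68 ± 0.683 CPM per kilobase, again with overlapping ranges. The other 5 genes lay below these in every control library. It held Clec4e at 0.722 ± 0.210, Clec12a at 0.686 ± 0.0727, Clec5a at 0.391 ± 0.107, Clec4n at 0.338 ± 0.313 and Clec4a2 at 0.294 ± 0.109 CPM per kilobase. Neighbours in this order overlapped, except Clec12a (lowest library 0.578) and Clec5a (highest library 0.542). In the stress group Clec4d was first at 15.3 ± 2.87 CPM per kilobase, ahead of Clec7a at 12.4 ± 3.64, with overlapping ranges. Clec4a2 stood last in the control group and at rank 6 in the stress group, at 1.20 ± 0.444 CPM per kilobase, and Clec4n was last there at 0.658 ± 0.153. By the length of the longest transcript, Clec4a2 had rank 8 in the control and 7 in the stress group.

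**Figure D1:**
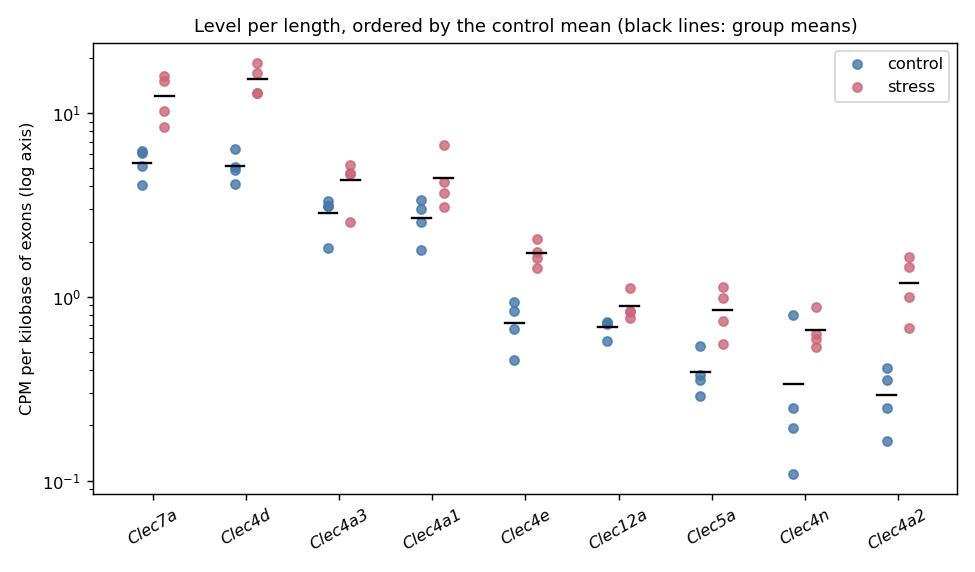
Level of the 9 genes in CPM per kilobase of exon (log axis), in control (blue) and stress (red) libraries, 1 point per library with the group mean as a black line. Clec7a and Clec4d were the most abundant receptors of both groups, and Clec4a2 moved up from the lowest control mean of 0.294.

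To ask whether restraint changed these receptors, each gene was compared between the groups in the fit across all genes. Of the 9 genes, 9 had a fitted level above that of the controls (47.1% of all tested genes did), 0 were called down (0.0171%) and 4 passed both thresholds of the study (absolute log2 fold change above 1 and adjusted p below 0.01): Clec4a2, Clec4d, Clec4e and Clec7a. Over all tested genes 1.69% were called up by this rule. Because the 9 genes were chosen with earlier results of these data known, such shares are set beside them as description only. The median log2 fold change of the 9 genes was 1.16. Total counts alone and scalings to neutrophil or classical monocyte markers moved the median over all tested genes to -0.82, -1.43 and -1.59 on the log2 scale, and with them 0 of the 9 were called up and 3, 7 and 8 had a fold change below 0. Relative to the median of all tested genes, the median of the 9 genes was higher by 1.19 with TMM. With these scalings the gap was 1.29, 1.20 and 1.08, and 9 of 9 lay above the median of all each time. A change of scaling shifts all genes by nearly the same amount, so the gap could hardly change and is no added support. The summed level of the 9 genes was 34.3 to 48.0 CPM in the control and 70.9 to 106.7 CPM in the stress libraries, but per 1e6 total counts it was 48.2 to 60.8 and 41.8 to 117.4, with overlap. By TMM-scaled CPM, every stress library lay above every control library in 6 of the 9, an order found for 11.1% of all tested genes. The reverse order was found for 0 of the 9 and 9.88% of all. Per 1e6 total counts Clec4d alone kept the first order, with 9.53 to 11.6 in the control and 13.4 to 32.9 in the stress libraries. The share of all tested genes with that order was not worked out for total counts. Whether a receptor transcript rose within its cells or its cells became more frequent in blood cannot be told apart in these bulk samples.

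Among the activating receptors, Clec4d, which in mice is known from neutrophils and monocytes, had the smallest p. Its level was 8.15, 7.86, 6.55 and 10.3 CPM in control replicates 1 to 4 and 20.7, 20.6, 26.5 and 29.9 CPM in stress replicates 1 to 4. The groups lay far apart, and stress replicates 3 and 4 were the highest. In edgeR's quasi-likelihood test the log2 fold change was 1.58 ± 0.16 (SE, here and below) with an adjusted p of 0.000766, and the gene passed in all 8 fits that left out 1 library.

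Clec4e, which binds mycobacterial cord factor, had 3.32, 4.14, 2.25 and 4.64 CPM in the control libraries and 8.12, 8.77, 7.13 and 10.3 CPM in the stress libraries. The groups did not overlap, and stress replicate 4 was again the highest. The log2 fold change was 1.28 ± 0.21 (edgeR, adjusted p = 0.00207), and it too passed in all 8 of these fits. Clec4d and Clec4e are described to form a complex with each other, and in every library Clec4d had more counts. The ratio of their counts, which does not depend on the scaling, was 1.90 to 2.90 in the control group and 2.34 to 3.71 in the stress group, with overlap.

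Clec7a had 16.4, 13.5, 10.8 and 16.0 CPM in the control libraries and 42.1, 22.2, 27.2 and 39.7 CPM in the stress libraries. Stress replicates 1 and 4 were high, and replicates 2 and 3 lay nearer to the controls without overlap. The log2 fold change was 1.22 ± 0.20 (edgeR, adjusted p = 0.00311). Clec7a passed in 6 of the 8 fits that left out 1 library, and missed the threshold of the adjusted p without control replicate 2 (0.0106) and without stress replicate 3 (0.0132).

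Clec5a, which binds dengue virus, had 1.36, 1.45, 1.11 and 2.08 CPM in the control libraries and 4.37, 2.83, 2.13 and 3.78 CPM in the stress libraries. The groups just failed to touch, at 2.08 against 2.13 CPM, and stress replicates 1 and 4 were high as for Clec7a. The log2 fold change was 1.16 ± 0.26, and the adjusted p of 0.0119 (edgeR) narrowly missed the threshold. With DESeq2, the tool of the study, it passed (adjusted p = 0.00109), as it did with limma-voom (0.00507).

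Clec4n, the receptor for fungal mannans, had the fewest counts, with 8 to 36 counts per control library and 10 to 39 per stress library. Its level was 0.353, 0.155, 0.275 and 1.14 CPM in control replicates 1 to 4 and 0.892, 0.835, 0.759 and 1.25 CPM in stress replicates 1 to 4. Control replicate 4 lay above 3 of the 4 stress libraries, so the groups overlapped. The log2 fold change was 1.06 ± 0.54 (edgeR, adjusted p = 0.196), and without control replicate 4 it was 1.89 (adjusted p = 0.0152). At these counts a change in Clec4n could not be told from the spread. The ratio of Clec4d to Clec4n counts was 9.03 to 50.8 in the control group and 23.2 to 34.9 in the stress group.

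**Figure D2:**
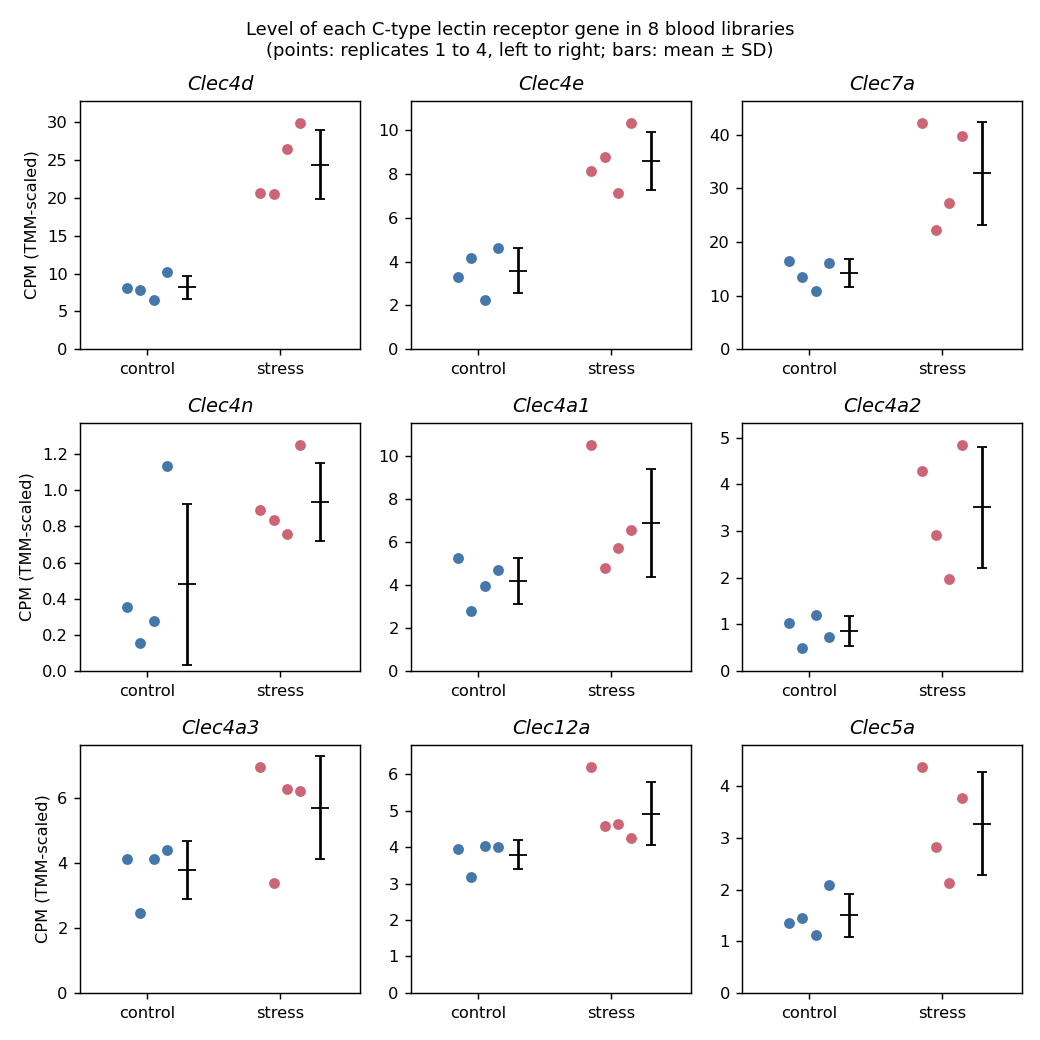
CPM of each gene (TMM-scaled, axes from 0) in the 4 control and 4 stress libraries, with the mean and SD of each group beside the points. On this scale Clec4d, Clec4e, Clec7a, Clec4a2, Clec12a and Clec5a show no overlap, whereas Clec4n, Clec4a1 and Clec4a3 overlap.

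The 2 inhibitory receptors differed in size of change. Clec4a2 had the largest fold of the 9 genes, with 1.03, 0.484, 1.20 and 0.725 CPM in the control libraries and 4.28, 2.92, 1.97 and 4.83 CPM in the stress libraries. All stress libraries lay above the controls, and stress replicates 1 and 4 were again the highest. The log2 fold change was 2.04 ± 0.33 (edgeR, adjusted p = 0.00205), and it passed in all 8 fits that left out 1 library. Its counts were low, 23 to 83 in the control and 26 to 151 in the stress libraries. Clec4a4, which holds most of its shared stretches of 50 bases, had at most 6 counts in any library.

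Clec12a, which granulocytes and monocytes carry and which binds uric acid crystals, had 3.94, 3.19, 4.03 and 4.01 CPM in the control libraries and 6.20, 4.59, 4.63 and 4.26 CPM in the stress libraries. The groups did not overlap but lay close together, at 4.03 against 4.26 CPM, and stress replicate 1 stood above the others. The log2 fold change of 0.38 ± 0.17 (edgeR, adjusted p = 0.146) did not pass, and it was the smallest of the 9.

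The other 2 DCIR-related genes were intermediate. Clec4a1 had 5.24, 2.79, 3.96 and 4.70 CPM in the control libraries and 10.5, 4.78, 5.69 and 6.56 CPM in the stress libraries, a log2 fold change of 0.74 ± 0.25 (edgeR, adjusted p = 0.0653). Clec4a3 had 4.13, 2.46, 4.13 and 4.42 CPM in the control libraries and 6.96, 3.39, 6.30 and 6.21 CPM in the stress libraries, a log2 fold change of 0.60 ± 0.24 (edgeR, adjusted p = 0.103). For both genes the stress library of replicate 2 fell within the control range and neither passed. Relative to these 2 genes of its cluster Clec4a2 was higher in each stress library than in any control library. The count ratio of Clec4a1 to Clec4a2 was 3.30 to 6.48 in the control and 1.36 to 2.88 in the stress libraries, and that of Clec4a2 to Clec4a3 was 0.164 to 0.290 in the control and 0.313 to 0.863 in the stress libraries. Neither ratio overlapped between the groups, whereas that of Clec4a1 to Clec4a3 did, at 0.958 to 1.27 and 0.904 to 1.51. These ratios need no scaling and were given without a test, and how often ratios of other gene pairs separate was not worked out. For Clec4a2 to Clec4a3 the groups lay close, at 0.290 against 0.313.

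As a share of the summed counts of the 9 genes, most genes overlapped between the groups. Clec7a took 34.9% ± 3.01 (SD, n = 4) in the control and 35.5% ± 4.10 in the stress group, and Clec4d 20.2% ± 1.61 and 27.2% ± 5.25, with overlapping ranges. The share of Clec12a was 8.35% to 11.8% in the control and 3.99% to 6.48% in the stress libraries. No other share of the 9 was without overlap, and how often shares in other gene sets separate was not worked out. Clec4a3 took 9.37% ± 2.14 and 6.23% ± 1.23, and Clec4a1 10.3% ± 1.93 and 7.47% ± 1.77, both with overlap. The share of a gene falls when other members rise, so a lower share is not a lower level.

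**Figure D3:**
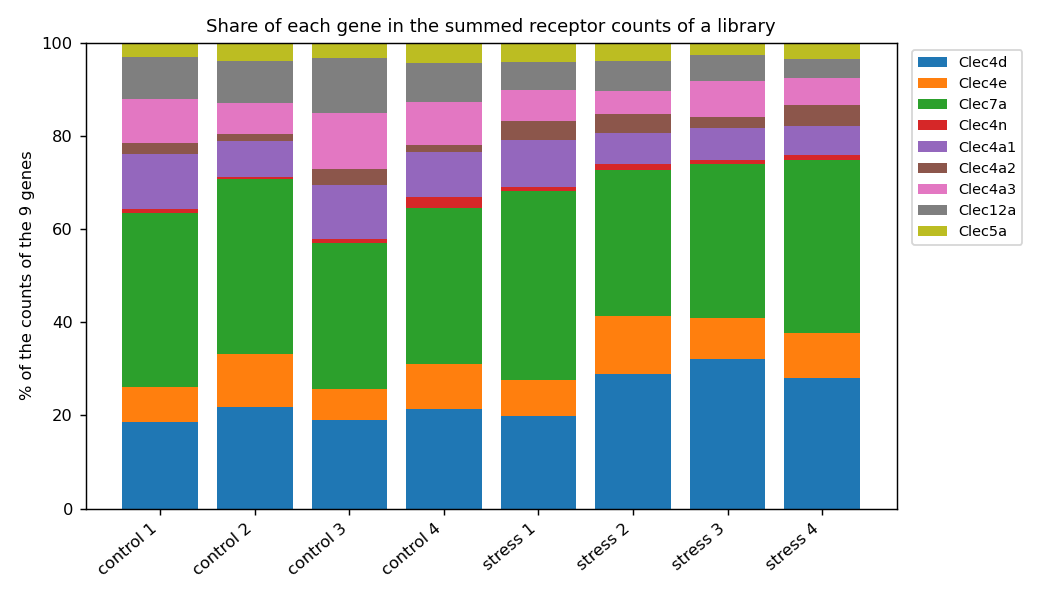
Share of each gene (percent) in the summed counts of the 9 genes, 1 bar per library. Clec7a and Clec4d together fill the larger part of each bar, and the Clec12a share is smaller in each of the 4 stress libraries (at most 6.48%) than in any control library (at least 8.35%).

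With the group means taken away, the log2 levels of the 9 genes still tended to vary together over the 8 libraries. Of the 36 gene pairs, 30 had a positive Pearson's r, with a median of 0.46 and a range from -0.36 to 0.84. The pair with the highest value was Clec4a1 and Clec12a, and the lowest was Clec4d and Clec12a. These correlations share the library scaling and are given as description only. How often pairs of other tested genes had a positive r was not worked out. Outside the set, the 5 tested genes whose log2 CPM followed the mean of the 9 most closely over the 8 libraries were Pid1, Gpr141, Lyn, Pik3r6 and Ankrd28, with r from 0.983 to 0.995. After subtracting the group means they were Tlr8, Tbkbp1, Dym, Ptpro and Lyn, with r from 0.968 to 0.985. These values are descriptions over 8 libraries that share the difference between the groups or the scaling. Lyn, a Src-family kinase of myeloid and B cells and one of the signalling genes below, was in both lists, and Tlr8 is an endosomal sensor of RNA.

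The genes downstream of the receptors were read from the same fit. Of 17 signalling genes 17 were tested, and edgeR fitted 14 above and 3 below the control group. None passed both thresholds (0 of 17), while an unadjusted p below 0.05 was reached by 8 with a higher and 0 with a lower level, and by 8 of the 9 receptors, against 18.2% of all tested genes with a higher level. The median log2 fold change was 0.27, against -0.03 for all tested genes. Disregarding the fold, 5 were higher with an adjusted p (edgeR) below 0.01, as were 4.59% of all tested genes. The smallest p-values were those of the adaptors Tyrobp (20.5 ± 4.53 to 38.9 CPM on average, log2 fold change 0.93 ± 0.15) and Fcer1g (log2 fold change 0.83 ± 0.15), and of Card9 (log2 fold change 0.87 ± 0.18). Syk was named after its value was seen because all activating receptors converge on it. Its log2 fold change was 0.02 ± 0.13 (edgeR, adjusted p = 0.923). B cells express Syk as well, and whether this bears on its value was not tested.

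Of 28 other C-type lectin genes, 13 were tested. Their fitted levels were above the controls for 11 and below for 2, and the median log2 fold change was 0.99. Olr1, an oxidised lipoprotein receptor encoded next to Clec7a, was the only one called, from 0.255 ± 0.0609 to 0.976 CPM on average (log2 fold change 1.98 ± 0.42, edgeR's adjusted p = 0.00831) and on few counts, 9 to 15 per control and 11 to 45 per stress library. Clec1b, the platelet receptor for podoplanin, had a log2 fold change of 0.99 ± 0.18, just short of the fold threshold. Cd209a had one of 1.41 (adjusted p = 0.0174) and Ly75, a dendritic and B cell receptor, one of -0.42 (adjusted p = 0.0335), both from edgeR and neither called. Clec4f and Cd207 had no count in any library.

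Of 14 genes that these receptors are known to induce, 5 had enough counts to be tested, and the fit placed 3 above and 2 below the controls (median 0.04 on the log2 scale). Nlrp3, the inflammasome sensor, was called up (log2 fold change 1.40 ± 0.20, edgeR's adjusted p = 0.00126). Il1b had a log2 fold change of 1.20 ± 0.28 but an adjusted p of 0.0151 (edgeR), Egr3 one of -0.78 (adjusted p = 0.0197) and Tnf one of -0.39 (adjusted p = 0.489), all from the same edgeR test. Il23a and Csf2 had no count, and Il6, Il10, Il12b, Cxcl1, Cxcl2, Ptgs2 and Csf3 were below the count minimum. Changes in all of these were therefore not detectable at this depth. The paper, which used DESeq2, counted Il1b among its up-regulated genes. By ELISA, which measures serum protein rather than blood RNA, it reported higher IL-1β and IL-6 and no significant change in TNF-α.

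Most neutrophil and classical monocyte markers also had a higher fitted level in the stress group, whereas most non-classical monocyte markers had a lower one, and their part in the result was not tested. Of 20 neutrophil markers (none of them one of the 9 genes) 17 were tested, all 17 with a higher fitted level and 10 called up (median 1.38 on the log2 scale). Their summed level was 204.5 to 399.5 CPM in the control and 623.7 to 920.4 CPM in the stress libraries. Ly6g, the defining marker, had 2 to 18 counts per control and 12 to 40 per stress library and was called up. Among the granule genes of the list, Camp, Mpo and Elane had at most 8 counts in a library. Ltf was tested and not called (13 to 68 and 27 to 44 counts, log2 fold change 0.84 ± 0.44). The same held for Ngp (20 to 43 and 13 to 38 counts, 0.81 ± 0.37). Lcn2 (2.12 ± 0.24) and Mmp8 (2.09 ± 0.33), also granule genes, were called up, while Mmp9 (0.97 ± 0.22) was not. Of 10 classical monocyte markers 9 were higher and 7 called up (median 1.51), with a summed level of 366.7 to 473.1 and 719.2 to 1232 CPM. Ly6c2 itself had a log2 fold change of 0.83 and was not called. Fold changes in this list were uneven, from -0.10 for Ms4a4c to 4.42 for Vcan on the log2 scale. By flow cytometry, which counts cells rather than RNA, the paper reported fewer monocytes, B cells, T cells and NK cells in blood after restraint. Neutrophils were reported to be more numerous. The 7 markers of non-classical monocytes had 1 higher, 6 lower and 0 called (median -0.35, summed level 139.2 to 183.6 and 108.2 to 153.6 CPM), Cx3cr1 being the higher one.

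Of the 6 dendritic cell markers 5 were tested, 3 higher and 2 lower with a median of 0.62, and 1 was called up, with a log2 fold change of 1.29 for Flt3 (not called), and the summed level was 10.1 to 12.8 CPM in the control and 11.2 to 16.2 CPM in the stress group. Of 10 eosinophil and basophil markers 6 were tested, with 3 higher, 3 lower and a median of -0.11, and Siglecf was not called. Their summed level was 15.2 to 17.4 and 19.5 to 24.3 CPM, in which Gata2, the gene called up, took 6.31 CPM on average in the control and 13.1 in the stress group. Il5ra was lower (log2 fold change -0.80 ± 0.16, edgeR's adjusted p = 0.00626) without passing the fold threshold. Platelet markers were higher in 8 of 8 with 3 called up, among them Pf4 (median 0.99). They summed to 1254 to 1872 CPM in the control and 2796 to 3561 CPM in the stress libraries. In all 8 every stress library lay above every control library, against 11.1% of all tested genes. The 9 B cell markers were lower in 9 with 0 called (median -0.51). Disregarding the fold, 4 of them were lower with an adjusted p (edgeR) below 0.01, as were 38 of all 11718 tested genes. In 6 of the 9 every stress library lay below every control library, an order found for 9.88% of all tested genes. T cell and NK cell markers had medians of -0.09 and -0.16 with 0 called, Cd3e and Ncr1 included. By cell counts the paper reported fewer of each of these lymphocytes. The 8 erythroid markers, with Hbb-bs among them, had a median of 1.05 with 0 called.

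When libraries were scaled so that the mean log2 count of the tested neutrophil markers was equal in each, 0 of the 9 genes and 0.0427% of all tested genes were called up. On this scale Clec4a2 (log2 fold change 0.57 ± 0.36) and Clec4d (0.19 ± 0.25) were above 0 and the other 7 below. Clec12a was called down (log2 fold change -1.03, adjusted p = 6.72e-04, edgeR), as were 77.4% of all tested genes, whose median was -1.43. Scaled in the same way to classical monocyte markers, Clec4a2 (0.36 ± 0.44) alone was above 0. By that scale 0 of the 9 were called up (0.0256% of all tested genes), and Clec12a (-1.22) and Clec4a3 (-1.08) were called down, as were 81.5% of all, whose median was -1.59. Scaled by total counts alone, 0 of the 9 were called up (0.119% of all tested genes) and 0 down (6.22%), with Clec4a2 at 1.31 ± 0.41 (adjusted p = 0.0129) and Clec4d at 0.85 (adjusted p = 0.0323), edgeR's test in each case, and Clec4a1, Clec4a3 and Clec12a below 0.

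**Figure D4:**
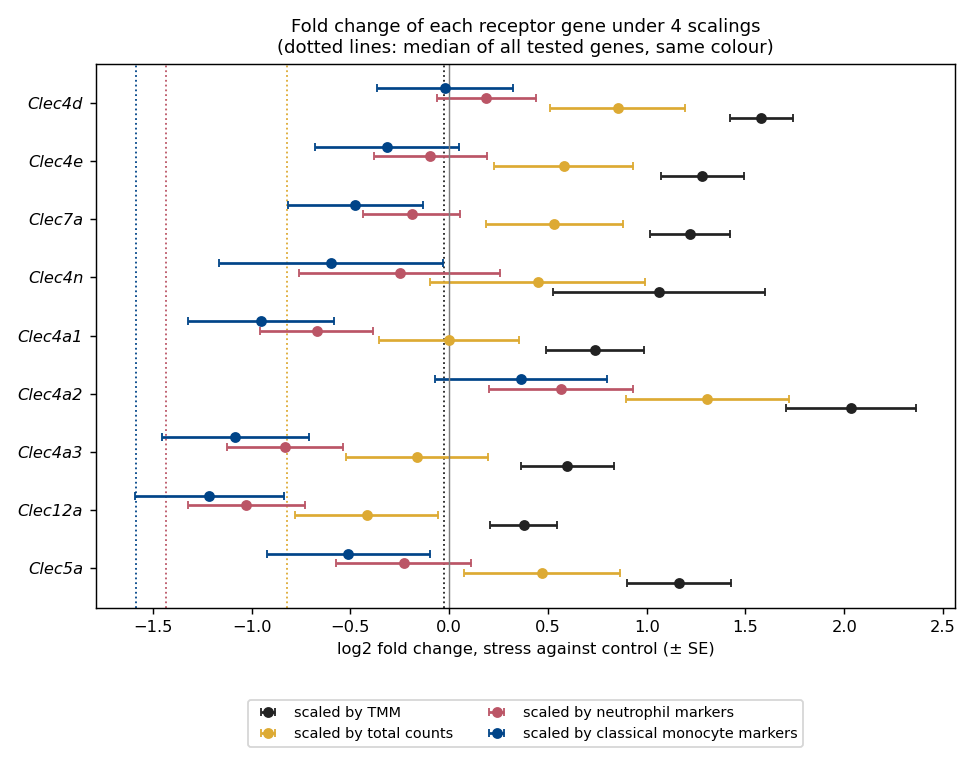
Log2 fold change of each gene, stress against control, with its standard error, for libraries scaled by TMM, by total counts, by neutrophil markers and by classical monocyte markers. Dotted lines give the median of all tested genes on each scale (-0.03, -0.82, -1.43 and -1.59). On each scale the fold changes of the 9 genes lie to the right of that line. A scaling shifts all genes nearly alike, so this order could hardly change.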

How the data were processed

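Total RNA of peripheral blood was made into libraries with a TruSeq kit. The authors deposited 1 table of raw read counts per gene symbol, made with HISAT2 and featureCounts on mm10 according to the submitters' processing notes, with versions, annotation and strand setting not given in the sources used here. Without strand, reads of antisense genes cannot be told apart. Columns were matched to samples by their labels (4 control, 4 stress).

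Of 21878 symbols, 11718 reached 10 counts in 4 or more samples and entered edgeR 4.0.16 (R 4.3.3) with TMM factors and its quasi-likelihood test in robust form. P-values were adjusted over all of them by Benjamini-Hochberg. Calls required an adjusted p below 0.01 and a log2 fold change beyond 1 in either direction, as in the study's methods. The standard error (SE) was the log2 fold change over the root of F. Alternatives were DESeq2 1.42.0, limma-voom (limma 3.58.1), other scalings, filters and thresholds, a replicate block, and leaving out each library. Scaling to markers set the mean log2(count + 0.5) of a marker list equal in all samples. Exon lengths came from GENCODE M21 (GRCm38), promoters from RefSeq. The fits were tested on simulated data.

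The 9 genes and all lists were chosen with earlier results of these data known. Named besides them were the 5 genes most like their mean (Pearson's r of log2 CPM, prior count 2), the same after subtracting group means, per pathway list each called gene and the 3 uncalled genes with the smallest p, and the first gene of each marker list. Syk, Tnf, Camp, Mpo, Elane, Ltf, Ngp, Lcn2, Mmp8, Mmp9, Ms4a4c, Vcan, Gata2, Il5ra and the untested genes were named after their values were seen. A withheld item is not reported here.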

Additional observations from a re-analysis of the deposited data

Results flagged for a closer look

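In the 18 groups of 4 samples (9 genes in 2 groups), 2 values stood apart from the other 3 of their group, and chance marks about 1 group in 20. Both were low values of control replicate 2, with 2.46 CPM for Clec4a3 (the other control libraries had 4.13 to 4.42) and 3.19 CPM for Clec12a (3.94 to 4.03).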

How the results depend on the processing

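Calls and signs of the fold changes moved under 3 scalings. These shifted the median of all tested genes from -0.03 to between -0.82 and -1.59. Relative to that median the 9 genes stayed higher, by a median of 1.08 to 1.29 against 1.19 with TMM. Since a scaling shifts all genes by nearly the same amount, this gap could hardly change. Of 143 fold changes of the 9 genes under the 16 settings other than the 3 scalings below, 143 stayed above 0, with 2 calls lost (Clec7a, without control replicate 2 and without stress replicate 3) and 5 gained (Clec5a, with DESeq2, limma-voom and no filter, and without control replicate 4 or stress replicate 3). Of the 9 genes, 4 were called up and 0 down. With total counts alone 0 were called up, and the log2 fold changes of Clec4a1 (-0.00058), Clec4a3 (-0.16) and Clec12a (-0.42) turned below 0. With neutrophil marker scaling 0 were called up and 1 down, and Clec4e (-0.10), Clec7a (-0.19), Clec4n (-0.25), Clec4a1 (-0.67), Clec4a3 (-0.83), Clec12a (-1.03) and Clec5a (-0.23) turned. With classical monocyte marker scaling 0 were called up and 2 down, and Clec4d (-0.023), Clec4e (-0.31), Clec7a (-0.48), Clec4n (-0.60), Clec4a1 (-0.95), Clec4a3 (-1.08), Clec12a (-1.22) and Clec5a (-0.51) turned.

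Over all tested genes 198 were called up and 2 down. The count up was 307 with DESeq2, 14 with total counts, 5 and 3 with neutrophil and monocyte marker scaling, 337 at an adjusted p below 0.05 and 538 with no fold threshold. It was 76 to 338 when 1 library was left out, lowest without control replicate 2, 96 without control replicate 3 and highest without control replicate 4. The count down was 12, 729, 9074, 9555, 20 and 38 in the same order of settings, 4 with upper quartile scaling, 4 with no filter, and 1 to 8 when 1 library was left out. Same-numbered samples did not deviate together (r of -0.16 to 0.06, and 1 of 4 control samples correlated best with its own number), and a fit with the replicate block called 4 of the 9 genes up and 1 gene down over all. By the longest transcript the control level per kilobase was 6.20 for Clec4d and 1.17 for Clec12a. Clec4n could not be fitted when 10 counts were required in all 8 samples. Depth limits Clec4n and Clec4a2 most, with as few as 8 and 23 counts in a library.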
